A study of Rattus norvegicus with 8 samples.

Results

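The cell cycle and proliferation genes examined here were 41 genes chosen by name, among them cyclins, cyclin-dependent kinases (CDKs), CDK inhibitors, DNA replication factors and mitotic regulators, and their levels were compared in the livers of rats that drank hydrogen water or control water. Of the 41, 40 had a probe set that carried a single gene symbol, and these are 40 of the 14217 genes named on the array. The subunit gene of ribonucleotide reductase Rrm2 had none and was not analysed here. Where a gene had several probe sets, the one with the highest mean over the 8 arrays stood for it. All animals were male outbred rats of the Sprague-Dawley strain, 8 weeks old, with 4 weeks on their water. Control animals drank sterilized distilled water, and the others drank hydrogen water, in which molecular hydrogen is dissolved at 0.7 mM. The study kept 8 animals per group, and 4 arrays of liver RNA per group were analysed here. Since the labels tie no array to an animal and leave pooling unstated, a p-value covers only the spread from array to array, which may be technical.

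Cells enter division when D-type cyclins, bound to CDK4 or CDK6, phosphorylate the retinoblastoma protein RB1 and release E2F transcription factors, which switch on genes for DNA synthesis. Cyclin E with CDK2 starts replication, and cyclins A and B with CDK1 drive mitosis, which ends when the anaphase-promoting complex destroys them. CDK inhibitors such as p21 and p27 hold this sequence back. Most hepatocytes of a grown rat rest outside the cycle, and after injury or partial removal of the liver they re-enter it.

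Promoters of members from 3 roles are shown because the mitotic and replication members held these motifs more often than promoters at large, as counted below without a test. RefSeq promoter entries of the rat assembly GRCr8 matched 30 of the 41 genes, and the 250 bases before each gene start were searched on both strands. The entries for Ccnd1, Ccnd2, Cdk6, Ccne2, E2f1, Mcm4, Rrm2, Ccna2, Aurkb, Ube2c and Cdkn1c were missing. The motifs were the CCAAT box (letters CCAAT), which NF-Y binds, the CHR element of mitotic genes (TTTGAA or TTCGAA) and the E2F element (TTTCCCGC, TTTCGCGC, TTTGCCGC or TTTGGCGC). Below, capitals mark every match, and joined capitals are matches that overlap.
Mki67 (GRCr8 chr1:199952594-199952843, minus strand): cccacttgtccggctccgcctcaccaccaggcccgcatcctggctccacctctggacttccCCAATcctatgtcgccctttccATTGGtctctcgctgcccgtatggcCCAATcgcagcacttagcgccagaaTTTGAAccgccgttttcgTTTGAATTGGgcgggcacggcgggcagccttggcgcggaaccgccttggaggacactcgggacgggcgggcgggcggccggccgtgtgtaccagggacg
Top2a (GRCr8 chr10:84473094-84473343, minus strand): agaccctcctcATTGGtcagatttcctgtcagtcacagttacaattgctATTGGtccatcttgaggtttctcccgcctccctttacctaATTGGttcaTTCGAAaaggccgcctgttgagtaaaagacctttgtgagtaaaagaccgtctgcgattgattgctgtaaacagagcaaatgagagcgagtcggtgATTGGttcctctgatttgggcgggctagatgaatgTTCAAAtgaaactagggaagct
Cdk1 (GRCr8 chr20:19265043-19265292, plus strand): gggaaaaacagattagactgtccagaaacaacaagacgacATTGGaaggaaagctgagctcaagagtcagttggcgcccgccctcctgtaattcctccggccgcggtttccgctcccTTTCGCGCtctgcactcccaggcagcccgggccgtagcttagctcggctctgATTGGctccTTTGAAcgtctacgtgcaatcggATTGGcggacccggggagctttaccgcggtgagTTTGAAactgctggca
Mcm5 (GRCr8 chr19:13488563-13488812, plus strand): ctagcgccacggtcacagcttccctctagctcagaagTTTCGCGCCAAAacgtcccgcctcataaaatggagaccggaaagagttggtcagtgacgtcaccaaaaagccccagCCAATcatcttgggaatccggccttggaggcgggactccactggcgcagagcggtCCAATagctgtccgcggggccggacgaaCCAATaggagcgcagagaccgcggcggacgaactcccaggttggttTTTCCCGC
Mcm2 (GRCr8 chr4:122918095-122918344, minus strand): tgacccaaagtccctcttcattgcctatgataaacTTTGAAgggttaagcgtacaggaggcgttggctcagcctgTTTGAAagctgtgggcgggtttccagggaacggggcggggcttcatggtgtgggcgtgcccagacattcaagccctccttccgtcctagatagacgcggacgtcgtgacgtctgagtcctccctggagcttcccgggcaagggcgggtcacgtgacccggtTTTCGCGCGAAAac
Rb1 (GRCr8 chr15:54911858-54912107, minus strand): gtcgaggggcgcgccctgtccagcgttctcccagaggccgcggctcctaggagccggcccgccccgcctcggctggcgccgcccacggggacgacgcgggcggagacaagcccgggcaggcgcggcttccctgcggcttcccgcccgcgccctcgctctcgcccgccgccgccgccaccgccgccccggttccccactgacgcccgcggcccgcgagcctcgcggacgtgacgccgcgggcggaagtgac

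A CHR element was found in 8 of the 12 mitotic promoters (66.7%), against 17.3% of all 27457 promoters of the same length. The CHR element was also found in 3 of 9 replication promoters (33.3%). A CCAAT box was found in 9 of the 12 mitotic (75%) and 6 of the 9 replication promoters (66.7%), against 34.3% of all promoters. The promoters of Mki67 and Top2a each held 4 CCAAT boxes and 2 CHR elements, and that of Cdk1 held 3 and 2 with 1 E2F element. An E2F element was found in 5 of 9 replication promoters (55.6%), those of Mcm2, Mcm5, Mcm6, Mcm7 and Tyms, against 1.81% of all promoters. It was found in 1 of 12 mitotic promoters and in 0 of the 9 promoters of the remaining roles, G1 genes, G1 to S control and CDK inhibitors. The promoter of Rb1 held none of the 3 motifs in this window. A match describes the letters and does not show that a factor binds there, and members that share a replication or mitotic role were chosen by name and not by their promoters.

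**Figure D1:**
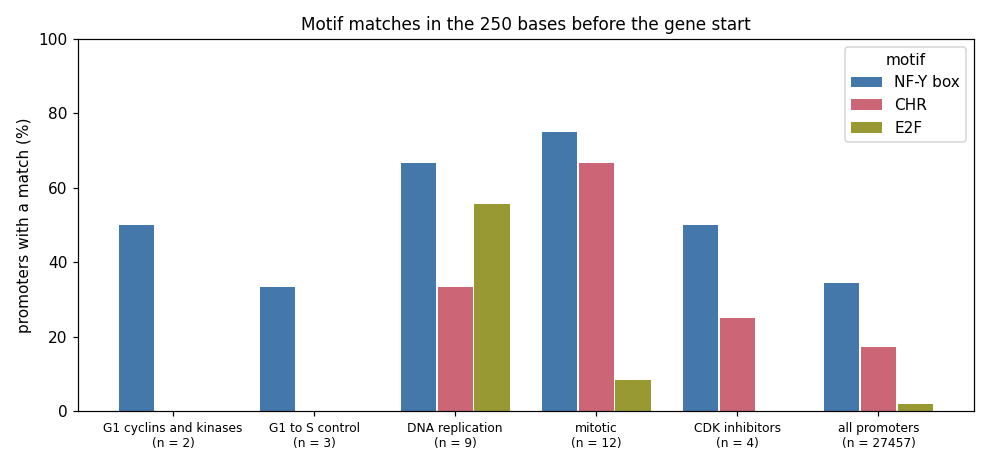
The share of promoters with at least 1 match of each motif (vertical axis, %) is plotted for the members of each role and for all promoters, with the number of promoters below each group. The CHR bar is highest in the mitotic group, at 66.7% of 12, and the E2F bar in the replication group, at 55.6% of 9. The NF-Y box is the CCAAT box of the text.

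Signals are given as log2(signal + pseudocount) after quantile normalization between arrays, and a difference is the hydrogen water mean minus the control mean on that scale. The number of arrays limits the precision. A probe set was tested when its mean log2 signal was at least 4.42, the median of all probe sets. A dimmer probe set cannot be set apart from background here and is given by its values only. Before normalization the trimmed mean signal was 115 ± 18.7 on control arrays and 91.5 ± 10.4 on hydrogen water arrays (SD over 4 arrays each), with p = 0.114 in a two-sided exact permutation test. The Gapdh 3′/5′ ratio, which rises as RNA degrades, was 0.22 ± 0.10 on the log2 scale for controls and 0.38 ± 0.08 for hydrogen water (SD over 4 arrays each). The same exact test gave p = 0.0571, and with 4 arrays per group its smallest possible p is 0.0286. The Gapdh ratio was not used as a covariate. Of all 15521 tested probe sets 128 passed, 69 higher and 59 lower with hydrogen water. The share that was higher depended on the scaling, with 21 of 505 without normalization, 55 of 187 with median centring and 102 of 144 with spike-in scaling. Hepatocyte markers such as albumin were all above the filter, 10 of 10. Markers of Kupffer cells, lymphocytes, erythroid, endothelial, stellate and bile duct cells, which could carry cell cycle transcripts of their own, passed in 0 of 35 tested genes of 51 measured in limma (5 of the 35 at unadjusted p under 0.05), where 0.825% of all tested probe sets passed and 12.5% were at that unadjusted p. The summed signals of these markers overlapped between groups in each of the 6 lists. For lymphocytes they were 202 to 269 in controls and 204 to 224 with hydrogen water, and for erythroid cells 3325 to 5030 and 4438 to 6882. Each sum rests mostly on its brightest markers. Of the markers, 8 of 11 for lymphocytes, 3 of 7 for erythroid cells and 3 of 5 for bile duct cells were dim. Overlap of the sums therefore does not show that these cell types were alike. In bulk liver, fewer cells of a type and less RNA per cell cannot be told apart.

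None of the 17 tested members passed the test between hydrogen water and control. In limma with Benjamini-Hochberg adjustment over all tested probe sets 0 of the 17 tested members passed an adjusted p of 0.05, against 0.825% of all tested probe sets. Of these 17, 1, Rb1, had an unadjusted p under 0.05, against 12.5% of all tested probe sets. The other 23 measured members were dim, among them 14 of the 15 mitotic genes. Over all 40 the differences ran from −0.94 for Ccnd1 to 0.80 for the dim Mcm5, with a median of −0.05, and the median over all probe sets was 0.00. For 12 of the 17 tested members the 95% confidence interval of the difference lay within a 2-fold change either way, and for 6 of them within 1.5-fold. The 5 whose interval reached beyond 2-fold were Ccnd1, Rb1, Cdc25b, Cdkn1a and Cdkn1b. The groups did not overlap at 2 of the 40 members, Rb1 and the dim Mki67, both lower with hydrogen water, where 5.30% of all probe sets did not overlap, 2.60% lower and 2.69% higher.

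**Figure D2:**
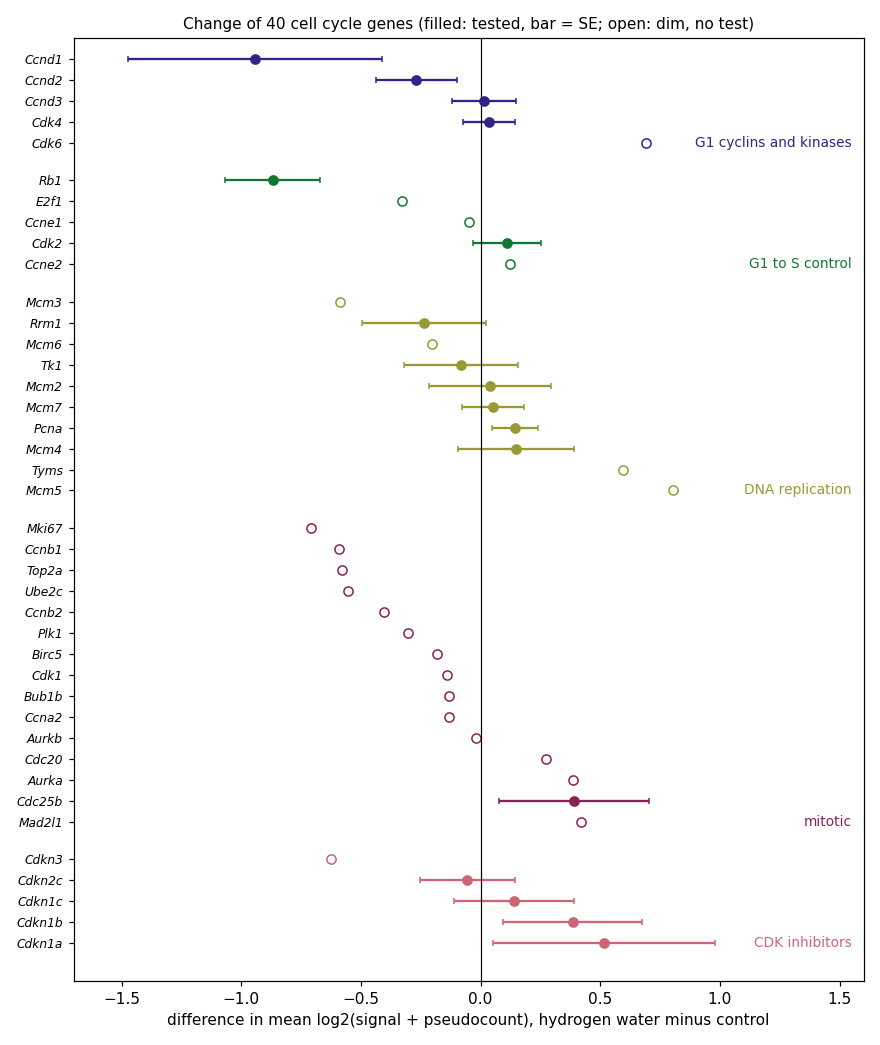
The difference in mean log2 signal, hydrogen water minus control (horizontal axis), is plotted for each of the 40 measured genes, sorted within its role. Filled points with bars (SE from limma) are the 17 tested genes and open points the 23 dim ones. Rb1 and Ccnd1 lie farthest to the left among the tested genes, at −0.87 and −0.94, and the bar of Ccnd1 is the longer.

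Among genes that control the step from G1 to S, Rb1, the retinoblastoma protein that holds E2F factors inactive, came closest to the threshold. Its log2 signal was 7.16, 7.01, 6.48 and 6.49 in control arrays 1 to 4, and 5.79, 6.22, 5.57 and 6.09 in hydrogen water arrays 1 to 4. Each hydrogen water array lay below each control array. The difference was −0.87 ± 0.20 (SE; 95% interval −1.30 to −0.43), 1.82-fold lower, with an adjusted p of 0.0737 in limma, so that it did not pass. It passed with median centring (adjusted p = 0.0449) and without normalization (0.00813) in limma. It did not pass with cyclic loess (0.0680), trimmed mean scaling (0.0644), spike-in scaling (0.142) or array brightness as a covariate (0.401), nor with any 1 array left out (0.0600 to 0.186). The kinase that pairs with cyclin E, Cdk2, had log2 signals of 6.22, 6.24, 5.72 and 6.09 in controls and 6.10, 6.27, 6.20 and 6.14 with hydrogen water. Its values overlapped, with a difference of 0.11 ± 0.14 (SE) and a 95% interval of −0.20 to 0.42 (adjusted p = 0.826 in limma). The second Cdk2 probe set differed by −0.20 ± 0.25 (SE), and the sign of the one shown first turned without normalization. Ccne1 and Ccne2, the E cyclins, and the transcription factor E2f1 were dim, with differences of −0.05, 0.12 and −0.33.

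Of the G1 genes, Ccnd1, cyclin D1, the D-type cyclin that growth signals induce in hepatocytes, varied most from array to array. Its log2 signal was 8.76, 7.50, 6.29 and 7.02 in control arrays 1 to 4, and 7.00, 7.32, 5.16 and 6.33 in hydrogen water arrays 1 to 4. Control array 1 was the highest of the 8 and hydrogen water array 3 the lowest, and the groups overlapped. The difference was −0.94 ± 0.53 (SE; 95% interval −2.11 to 0.23), 1.92-fold lower, with an adjusted p of 0.529 in limma. The other probe sets of Ccnd1 gave −0.98 ± 0.39 and −0.99 ± 0.43 (SE; adjusted p = 0.327 and 0.380 in limma), and each of the 3 had its highest value in control array 1 and its lowest in hydrogen water array 3. Without control array 1 the difference was −0.49, and without hydrogen water array 3 it was −0.51. The within-group SD of Ccnd1, 1.00, was exceeded by 0.528% of tested probe sets, whose median SD was 0.22.

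The other G1 genes that were tested had smaller differences. Ccnd2, cyclin D2, had log2 signals of 6.67, 6.35, 6.22 and 6.52 in controls and 6.42, 6.37, 6.15 and 5.75 with hydrogen water. Its lowest value was hydrogen water array 4, and the difference of −0.27 ± 0.17 (SE) had an adjusted p of 0.583 in limma. Cyclin D3, encoded by Ccnd3, differed by 0.01 ± 0.13 (SE; 95% interval −0.28 to 0.31). Cdk4, the kinase that D cyclins activate, had log2 signals of 8.27, 8.51, 8.49 and 8.41 in controls and 8.42, 8.70, 8.41 and 8.29 with hydrogen water. The groups lay over one another, with a difference of 0.03 ± 0.11 (SE; 95% interval −0.20 to 0.27), whose sign turned without normalization, with median centring and with array brightness as a covariate. Its relative Cdk6 was dim, between 1.39 and 3.58.

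**Figure D3:**
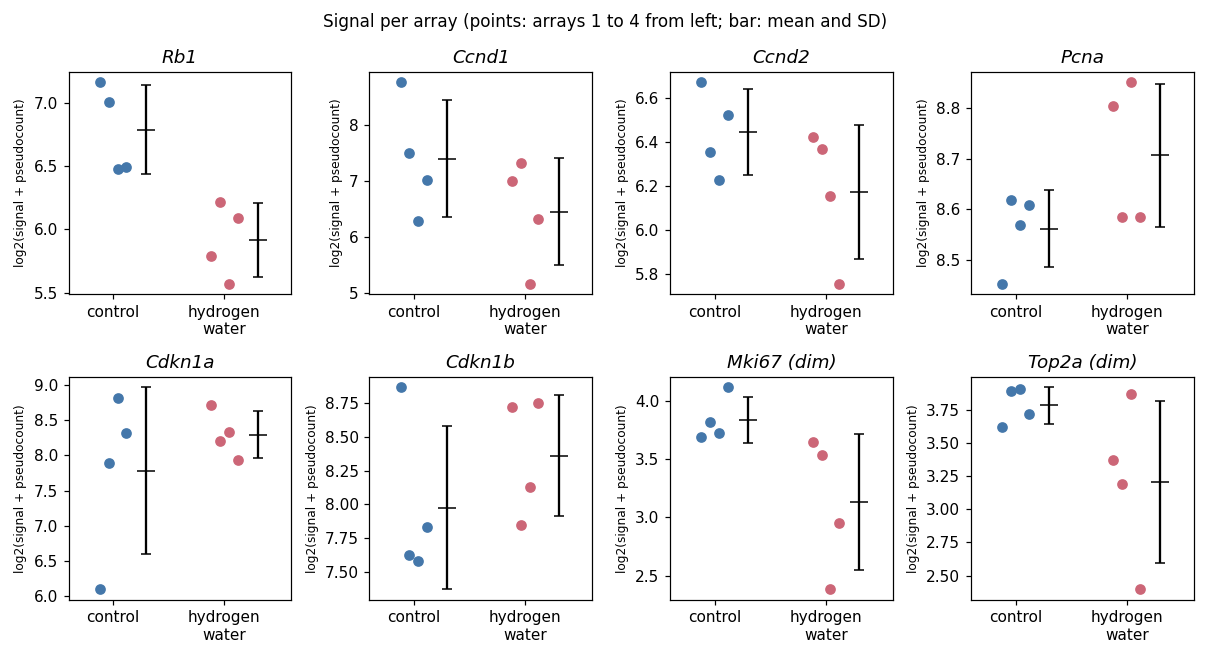
Each panel plots the log2(signal + pseudocount) of 1 gene (vertical axis, scale differs between panels) in the 4 control and the 4 hydrogen water arrays as points, with the mean and SD beside them. The groups separate in the panel of Rb1 and, at dim signals, in that of Mki67, and they overlap in the other 6 panels.

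Of the CDK inhibitors, none of the 4 tested passed. Cdkn1a, which encodes p21, the inhibitor induced by p53 and by stress, had log2 signals of 6.09, 7.88, 8.82 and 8.32 in control arrays 1 to 4, and 8.72, 8.20, 8.33 and 7.93 in hydrogen water arrays 1 to 4. Control array 1, where Ccnd1 was highest, was by far the lowest for Cdkn1a, and the other 7 arrays lay between 7.88 and 8.82. The difference of 0.51 ± 0.46 (SE; adjusted p = 0.733 in limma) was −0.05 without control array 1. The second Cdkn1a probe set had its lowest value, 4.14, in the same array, and differed by 1.01 ± 0.57 (SE; adjusted p = 0.529 in limma).

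**Figure D4:**
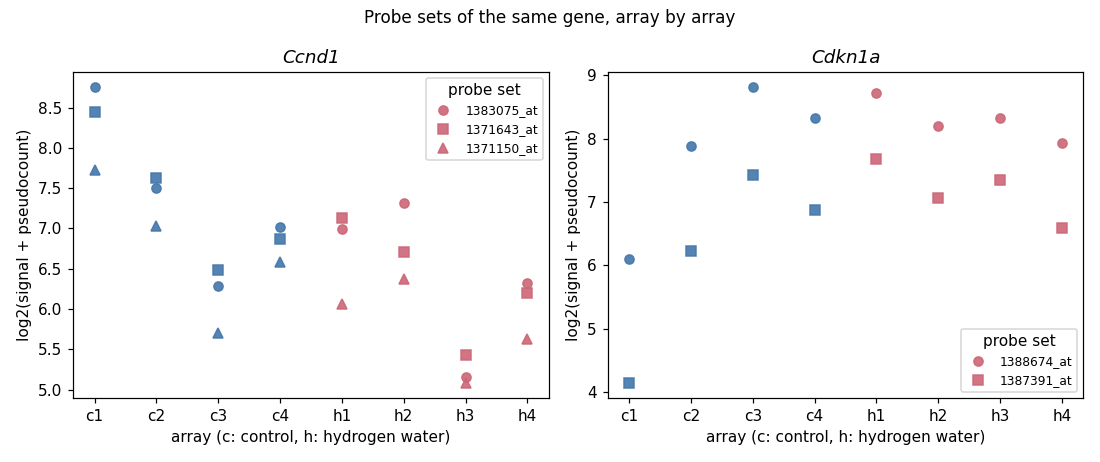
The log2(signal + pseudocount) (vertical axis) of each probe set of Ccnd1 and Cdkn1a is plotted for the 8 arrays (c1 to c4, control; h1 to h4, hydrogen water), with 1 marker shape per probe set. In control array 1 the 3 Ccnd1 probe sets stand at their highest values and the 2 Cdkn1a probe sets at their lowest, 6.09 and 4.14.

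Cdkn1b, which encodes p27, an inhibitor abundant in resting cells, had log2 signals of 8.87, 7.62, 7.58 and 7.83 in controls and 8.72, 7.85, 8.13 and 8.75 with hydrogen water. Control array 1 stood above the other controls, and hydrogen water arrays 1 and 4 were near it. The difference was 0.39 ± 0.29 (SE; adjusted p = 0.668 in limma), and 0.68 without control array 1 (adjusted p = 0.226). Cdkn1c, the inhibitor p57, had log2 signals of 4.65, 4.30, 4.67 and 4.57 in controls and 4.01, 5.01, 5.002 and 4.73 with hydrogen water. Its difference of 0.14 ± 0.25 (SE) did not pass (adjusted p = 0.886 in limma) and turned negative without normalization. The INK4 inhibitor Cdkn2c differed by −0.06 ± 0.20 (SE). Cdkn3, a phosphatase that acts on CDKs, was dim and differed by −0.62. The median of the 5 was 0.14.

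None of the 6 tested replication genes passed, and their groups overlapped. Pcna, the sliding clamp of DNA polymerases, had log2 signals of 8.45, 8.62, 8.57 and 8.61 in controls and 8.80, 8.59, 8.85 and 8.59 with hydrogen water. Hydrogen water arrays 1 and 3 were above all controls and arrays 2 and 4 within their range. The difference was 0.14 ± 0.09 (SE; 95% interval −0.06 to 0.35, adjusted p = 0.605 in limma), and −0.18 without normalization. A larger within-group SD than that of Pcna was found in 86.8% of tested probe sets, which were not matched to it for signal. SDs were larger at dim signals, with a median of 0.69 below the filter and 0.22 for tested probe sets. Of the MCM helicase subunits that unwind DNA at origins, Mcm2 had log2 signals of 4.64, 4.29, 4.97 and 4.48 in controls and 4.80, 4.63, 4.07 and 5.05 with hydrogen water. The difference of 0.04 ± 0.25 (SE) lay inside this spread, and its sign turned without normalization. Mcm4 had log2 signals of 4.56, 4.11, 4.94 and 4.25 in controls and 4.23, 4.72, 4.77 and 4.74 with hydrogen water. Hydrogen water array 1 lay apart from the other 3 of its group, and the groups overlapped. The difference was 0.15 ± 0.24 (SE; adjusted p = 0.869 in limma) and turned negative without normalization. Mcm7 differed by 0.05 ± 0.13 (SE). Mcm3, Mcm5 and Mcm6 were dim, with differences of −0.59, 0.80 and −0.20. Rrm1, the large subunit of ribonucleotide reductase, which makes deoxynucleotides, had log2 signals of 4.86, 5.60, 5.68 and 5.53 in controls and 5.72, 5.39, 4.72 and 4.89 with hydrogen water. Both groups spanned the same range, with a difference of −0.24 ± 0.26 (SE; adjusted p = 0.791 in limma). Tk1, thymidine kinase, differed by −0.08 ± 0.24 (SE), and Tyms, thymidylate synthase, was dim at a difference of 0.60. The median of the 10 measured replication genes was 0.05.

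Mitotic genes gave dim signals in both groups. Only Cdc25b, the phosphatase that activates CDK1, was tested, and the mean log2 signals of the other 14 lay below 4.42. Cdc25b had log2 signals of 4.38, 3.85, 4.21 and 4.93 in controls and 4.21, 5.37, 4.96 and 4.38 with hydrogen water. Hydrogen water array 2 was the highest and the groups overlapped, with a difference of 0.39 ± 0.31 (SE; adjusted p = 0.695 in limma). Mki67, whose protein Ki-67 marks cycling cells, had log2 signals of 3.69, 3.82, 3.73 and 4.12 in controls and 3.65, 3.54, 2.38 and 2.95 with hydrogen water. All hydrogen water values lay below all control values, for a difference of −0.71. In a limma fit without the filter, Mki67 had an adjusted p of 0.645. Top2a, the topoisomerase that untangles chromosomes, had 3.62, 3.89, 3.91 and 3.72 in controls and 3.37, 3.19, 3.87 and 2.40 with hydrogen water. Hydrogen water array 3 lay among the controls, and the difference of −0.58 had an adjusted p of 0.723 in that fit.

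The kinase of mitosis itself, Cdk1, had log2 signals of 3.24, 3.89, 2.68 and 2.96 in controls and 3.11, 3.47, 1.82 and 3.82 with hydrogen water. These overlapped, with a difference of −0.14 that took the opposite sign in 4 of 23 other settings. Its cyclin Ccnb1 had 3.67, 3.60, 3.99 and 4.26 in controls and 1.89, 3.68, 3.95 and 3.63 with hydrogen water. On this probe set hydrogen water array 1 alone was low, and the difference of −0.59 was −0.13 without it. The second Ccnb1 probe set, also dim, differed by −0.78 and was lowest, at 2.22, in hydrogen water array 4. The dim Ube2c, the ubiquitin-conjugating enzyme of the anaphase-promoting complex, differed by −0.55, cyclin B2 (Ccnb2) by −0.40 and the kinase Plk1 by −0.30. Survivin (Birc5), the checkpoint kinase Bub1b, cyclin A2 (Ccna2) and the kinase Aurkb, all dim, lay between −0.18 and −0.02. The difference was below 0 for 11 of the 15 mitotic genes, and above 0 for the kinase Aurka, Cdc20 and the checkpoint protein Mad2l1, which were dim, and for Cdc25b. That count depends on the probe set: of the other probe sets, 2 of Cdc20 differed by −0.54 and −0.87 and 1 of Mad2l1 by −0.34. The remaining ones were higher, of Cdc20 by 0.58 and 0.10 and of Mad2l1 by 0.19. Of all probe sets below the filter, 49.5% were lower. The median over the 15 was −0.14, against 0.01 over all probe sets below the filter, and it was −0.01 without hydrogen water array 1, 0.02 with median centring, −0.14 with cyclic loess and −0.24 without normalization. The median within-group SD of the 15 genes, 0.62, was near the 0.69 of all probe sets below the filter.

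The roles were then set side by side by the mean of their genes in each array, after each gene was centred on its mean over the 8 arrays. The mitotic mean was −0.19, 0.15, 0.03 and 0.31 in control arrays 1 to 4, and −0.35, 0.09, −0.10 and 0.05 in hydrogen water arrays 1 to 4. The lowest value was hydrogen water array 1 and the highest control array 4, and the groups overlapped. The replication mean was −0.22, −0.25, 0.15 and 0.18 in controls and 0.13, −0.14, −0.18 and 0.32 with hydrogen water. It did not order the arrays as the mitotic mean did: control array 2 was the lowest for replication and above 0 for mitosis. For the G1 cyclins and kinases the control mean was 0.05 ± 0.31 and the hydrogen water mean −0.05 ± 0.43 (SD, n = 4 each). For G1 to S control they were 0.10 ± 0.22 and −0.10 ± 0.13 and for CDK inhibitors −0.04 ± 0.25 and 0.04 ± 0.16 (SD, n = 4 each). With all measured genes the group means of each of the 5 roles were closer together than the sum of their SDs. With the 4 tested CDK inhibitors alone they were farther apart than that, with a control mean of −0.12 ± 0.14 and a hydrogen water mean of 0.12 ± 0.07 (SD, n = 4 each). The arrays still overlapped, with control array 3 at 0.06 and hydrogen water array 2 at 0.05. Control array 1, where Cdkn1a was lowest, was the lowest at −0.28. With the tested genes of each other role the means were closer together than that sum. No test was made of these means because the genes were chosen by name with earlier results known.

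**Figure D5:**
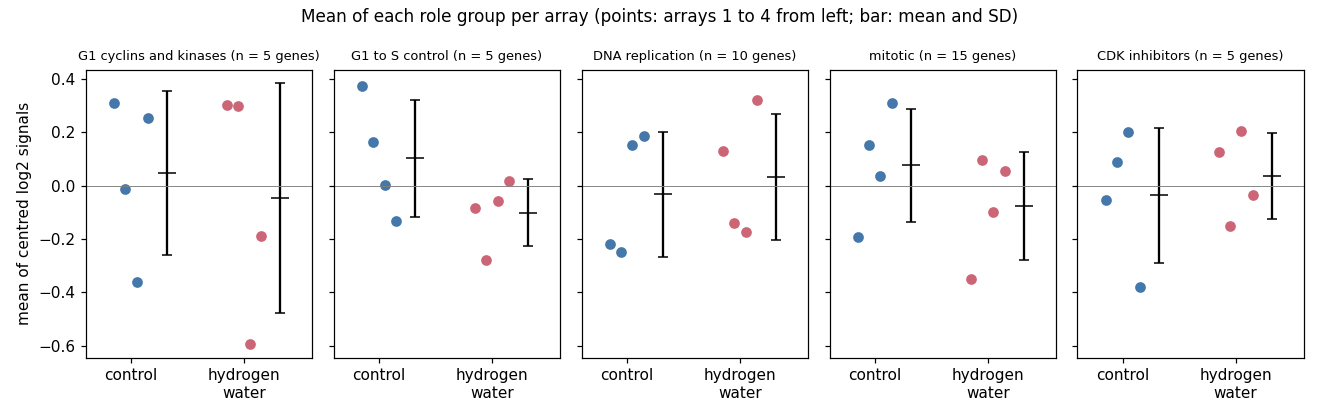
For each of the 5 roles the mean of the centred log2 signals of its genes (vertical axis) is plotted per array, with the mean and SD of each group beside the points. The groups overlap in each panel, and the hydrogen water points of the G1 panel spread farthest, from 0.30 to −0.59.

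Beyond the members, 119 of 141 further cell cycle genes were measured and 61 tested, of which 9 were at an unadjusted p under 0.05. The share of all tested probe sets at that p, 12.5%, is the background for each of the 4 lists that follow. Among the 119, the groups did not overlap at 6 lower and 3 higher genes. Of all probe sets 2.60% were lower and 2.69% higher in this way. Orc2, a subunit of the origin recognition complex that marks replication origins, rose with hydrogen water and was the only one of the 61 to pass, against 0.825% of all tested probe sets. Its log2 signal was 6.75, 6.65, 6.59 and 6.69 in controls and 7.17, 7.20, 7.31 and 7.31 with hydrogen water. The groups were far apart relative to their spread, with a rise of 0.58 ± 0.10 (SE; adjusted p = 0.0243 in limma), or 1.496-fold. Orc2 missed the threshold without control array 2 or 4 (adjusted p = 0.0693 each) and without hydrogen water array 1, 3 or 4 (0.0594, 0.0882 and 0.0886). It also missed it without normalization (0.406) and with median centring, spike-in scaling or array brightness as a covariate (0.0798, 0.0740 and 0.148), and with the replicate number as a block (0.0628), all in limma. Of the 40 measured replication genes outside the members 28 were lower and 12 higher, with a median of −0.06. Over all probe sets 49.9% were lower, with a median of 0.00, and 16 of the 40 genes were dim. Of the 24 tested, 4 were at an unadjusted p under 0.05, against 12.5% of all tested probe sets. Besides Orc2 these were Hells, a chromatin remodelling helicase, Rfc1, the large subunit of the clamp loader, and Gins4, a subunit of the replicative helicase, named here after their values were seen. Their differences were −0.94 ± 0.24, −0.32 ± 0.12 and −0.38 ± 0.15 (SE; adjusted p = 0.110, 0.300 and 0.322 in limma). In each of these 3 genes all hydrogen water arrays lay below all controls, as they did at 2.60% of all probe sets. This gap is no separate support, since the genes were picked by p. Hells passed without normalization.

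Among 46 measured genes of mitosis outside the members, 34 were dim, 0 of the 12 tested passed in limma and 1, Ccnf, was at an unadjusted p under 0.05. Ccnf, cyclin F, a substrate receptor of an SCF ubiquitin ligase, had log2 signals of 5.87, 7.31, 6.24 and 6.62 in controls and 4.76, 5.39, 5.27 and 3.91 with hydrogen water. Each hydrogen water array lay below each control array. The difference was −1.67 ± 0.36 (SE), 3.19-fold lower, with an adjusted p of 0.0632 in limma. With spike-in scaling, median centring, array weights and the replicate block it passed, at 0.0317, 0.0311, 0.0475 and 0.0359 in limma, and without normalization at 0.000305. It passed in 6 of 22 settings, 1 of them the looser threshold of 0.10, and missed with cyclic loess (adjusted p = 0.0609 in limma) and with each array left out (0.0541 to 0.153). The complex subunits Anapc1 and Cdc23 and the kinase Wee1, which restrains CDK1, differed by −0.37 ± 0.18, 0.25 ± 0.16 and −0.33 ± 0.25 (SE), and none passed. The sign of Cdc23 turned without normalization.

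Of 17 measured genes of G1 and S control outside the members, 13 were tested, 0 passed in limma and 2 were at an unadjusted p under 0.05. Ccng1, cyclin G1, had log2 signals of 6.95, 7.05, 6.93 and 7.28 in controls and 7.54, 7.69, 7.38 and 7.67 with hydrogen water. All hydrogen water values lay above all controls, for a difference of 0.51 ± 0.12 (SE; adjusted p = 0.0749 in limma). Cks1b, a CDK-binding protein, differed by 0.45 ± 0.15, E2f5 by 0.40 ± 0.19 and the E2F partner Tfdp1 by 0.21 ± 0.14 (SE), and none passed. For E2f5 too, all hydrogen water values lay above all controls. Ccng1, E2f5 and Ccnf were named in order of p, so their gaps between groups are no separate support. The sign of Tfdp1 turned without normalization. Of 16 measured growth arrest, checkpoint and p53 target genes, 12 were tested, 0 passed in limma and 2 were at an unadjusted p under 0.05. Gadd45a, a growth arrest gene, differed by −0.54 ± 0.18 and the antiproliferative Btg1 by 0.24 ± 0.09 (SE; adjusted p = 0.219 and 0.271 in limma). Phlda3 and the INK4 inhibitor Cdkn2d differed by −0.49 ± 0.27 and 0.31 ± 0.20 (SE). Gadd45a passed without control array 3 (adjusted p = 0.0124) and without normalization (0.0173), and the sign of Btg1 turned without normalization.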

How the data were processed

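Biotin-labelled cRNA from liver was hybridized to Affymetrix arrays, per the labels. The deposited values are intensities that the authors made with MAS5, per the submitters' processing notes. The sources used here state no scaling target and hold no detection calls. The array medians ran from 17.2 to 26.8, so arrays were quantile-normalized, which hides a shift of most transcripts one way. Values entered the log2 scale after adding 2.05, the pseudocount (10% of their median), so differences of dim probe sets are understated. Leaving out 57 controls, 31042 probe sets remained, and the 15521 whose mean reached 4.42 (log2) were tested with limma 3.58.1 (lmFit, eBayes with trend, R 4.3.3), Benjamini-Hochberg adjusted over all of them.

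Gene names came from the platform annotation: 20826 probe sets had 1 symbol, 436 several and 9780 none, and 20758 of the 20826 matched the RefSeq table of GRCr8 by Entrez ID. Choosing probe sets by the deposited mean changed only that of Mad2l1 among the members. Full values are given for members with an unadjusted p under 0.05, for the first 3 tested of each role by p, and for Ccnd1, Cdkn1a, Cdkn1b, Pcna, Mcm2, Cdk1, Ccnb1, Mki67 and Top2a. Of the other lists, genes that passed are named, or else the first 4 by p. Outside this rule, Hells, Rfc1 and Gins4 were added after their values were seen. Members and lists were chosen with earlier results of these data known. The fit was tested on simulated data. Their noise was normal and independent between probe sets, without differences between arrays, so that check does not cover such features of these data. Alternatives changed the scaling, pseudocount, filter, prior, weights, block, covariate, probe set choice and threshold, and left out each array.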

Additional observations from a re-analysis of the deposited data

Results flagged for a closer look

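Array values of the 40 measured genes were screened in 80 groups of 4 arrays for 1 value far from the other 3, with Dixon's ratio above its 95% critical value. In 8 groups such a value was found, where chance gives about 1 in 20 groups if values are normally distributed. Log2 signals of dim genes need not be, so no excess is read from the count. The only tested gene among the 8 groups was Mcm4, at 4.23 in hydrogen water array 1 and 4.72 to 4.77 in the others of its group. The remaining 7 were dim genes. In hydrogen water arrays, E2f1 was at 1.53 in array 2 (3.20 to 3.51 in the others), Tyms at 2.73 in array 1 (3.88 to 4.01) and Ccnb1 at 1.89 in array 1 (3.63 to 3.95). In control arrays, Ccna2 was at 1.17 in array 1 (2.97 to 3.21), Birc5 at 1.95 in array 1 (3.57 to 3.71), Cdc20 at 2.26 in array 3 (3.98 to 4.32) and Cdkn3 at 1.68 in array 4 (3.81 to 4.09). All 8 were the lowest of their group.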

How the results depend on the processing

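Over all probe sets 128 passed. The count was 505 without normalization, 64 without the trend, 12 with array brightness as a covariate, 63 of 7109 genes with gene means and 353 at an adjusted p of 0.10. It ran from 55 to 197 when 1 array was left out, 55 without hydrogen water array 3 and 197 without control array 3. Of the members, 1, Rb1, passed without normalization, with median centring and at 0.10. The count was 0 under each of the other 20 settings, including every array left out. Rb1 was tested in 22 of the 23 settings and fell below the filter in the remaining setting, so it could not pass there. Of the other cell cycle genes, 1 passed. The count was 3 without normalization and at 0.10, 2 with array weights, 0 with the brightness covariate, and from 0 to 2 with 1 array left out. Without normalization the median of all probe sets was −0.27, and the medians were −0.35 for G1 cyclins and kinases, −0.24 for G1 to S control, −0.27 for replication genes, −0.24 for mitotic genes and −0.12 for CDK inhibitors. In that setting the sign turned for Cdk4 (−0.31), Cdk2 (−0.24), Pcna (−0.18), Mcm2 (−0.23), Mcm4 (−0.11), Cdkn1c (−0.12), Tfdp1 (−0.14), Cdc23 (−0.088) and Btg1 (−0.0085). It also turned for Cdk4 with median centring (−0.047) and the brightness covariate (−0.0095), and with gene means for Cdk2 (−0.044) and Cdc23 (−0.022). With 1 array left out it turned for Cdk4 (−0.048 to 0.090), Cdk2 (−0.0051 to 0.17), Mcm2 (−0.099 to 0.23) and Cdkn1a (−0.047 to 0.86). The cause was not tested. To look for pairs, the group mean of each tested probe set was subtracted from its values. These deviations correlated between arrays with the same replicate number at −0.10, 0.04, 0.19 and −0.00, so the numbers were not taken as pairs. With the replicate block 181 probe sets and 0 members passed. Signals near background limit what the 23 dim members can show.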
